A study of Mus musculus with 6 samples.

Results

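The enzymes described here make the deoxynucleotides that a cell spends when it copies its DNA. They are the products of 9 genes: Rrm1 and Rrm2, Tk1 and Dck, Tyms, Dut and Dtymk, and Cad and Umps. Members were all probe sets of the array that its annotation gives to exactly 1 gene symbol, where that symbol is 1 of these 9. The rule found 26 probe sets of 45037 on the array, for 9 genes of 18193. It used no measured value, but the 9 genes were chosen with earlier results of these data known. RNA was measured on Affymetrix mouse genome arrays in tracheal mesenchyme of adult male C57Bl/6 mice, in 3 control samples and in 3 samples collected 48 h after injury with sulfur dioxide (SO2) gas, called 48 hours post injury (hpi) here. Injured mice breathed 500 ppm SO2 for 4 h, which kills the luminal cells of the airway epithelium, and control mice are labelled normal control. No genetic change is named for either group, and each sample pooled tissue of 4 mice. The tissue was what remained of the trachea once the epithelium had been peeled away after 23 min in dispase, with no sorting of cells named for it. The pools are separate, so p-values measure the spread between pools and not between single mice.

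Ribonucleotide reductase turns ribonucleotides into deoxynucleotides and is built from a large catalytic subunit, the product of Rrm1, and a small radical-bearing subunit, the product of Rrm2. Cells meet the rest of the demand by salvage, in which thymidine kinase and deoxycytidine kinase phosphorylate nucleosides taken up from outside. Transcripts of Rrm2, Tk1 and Tyms are known to be low in resting cells and to climb at the entry to S phase, under control of E2F factors, whereas Cad and Umps also serve RNA and sugar metabolism in cells that do not divide.

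Promoter letters are shown for both reductase subunits and for Tk1, whose probe sets gave the results with the lowest p-values, and for Dtymk, whose brightest probe set did not pass the test. Each run is the 120 bases just before the annotated start in RefSeq, on build GRCm38.p6, written 5′ to 3′ on the strand of the gene. Capitals mark the letters CCAAT (or ATTGG, the same box on the other strand) and GGGCGG, the GC box bound by Sp1 factors (or CCGCCC).
Rrm2 (chr12:24708134-24708253, plus strand): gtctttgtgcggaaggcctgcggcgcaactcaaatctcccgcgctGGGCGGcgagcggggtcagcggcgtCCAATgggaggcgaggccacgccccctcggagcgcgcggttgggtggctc
Rrm1 (chr7:102441575-102441694, plus strand): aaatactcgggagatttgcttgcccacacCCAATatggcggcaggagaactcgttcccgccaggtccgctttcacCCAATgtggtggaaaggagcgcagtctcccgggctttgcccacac
Tk1 (chr11:117826015-117826134, minus strand): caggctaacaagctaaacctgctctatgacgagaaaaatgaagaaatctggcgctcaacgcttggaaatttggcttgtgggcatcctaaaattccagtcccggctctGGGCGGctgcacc
Dtymk (chr1:93801935-93802054, minus strand): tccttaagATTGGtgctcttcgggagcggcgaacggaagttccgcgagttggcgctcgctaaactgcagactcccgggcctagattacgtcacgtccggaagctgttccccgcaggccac

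Each of the 9 genes had 1 promoter window in the RefSeq table, from 250 bases before the start to 50 bases after it. CCAAT stood in the windows of 3 of the 9 genes, on either strand, against 37.4% of all 32851 windows. Rrm1 held it at 2 places, with first bases 91 and 45 bases before the start, Rrm2 at 1 place 50 bases before it, and Dtymk at 1 place 112 bases before it. GGGCGG stood in 7 of the 9 windows, against 35.7% of all windows, and Rrm1 and Dtymk lacked it. The letters of an E2F site, searched as TTTGGCGC, TTTCGCGC, TTTGCCGC and TTTCCCGC, stood in 0 of the 9 windows and in 2.26% of all windows. The cell cycle homology letters TTTGAA and TTCGAA stood in 2 of the 9 (Dck and Umps) against 19.2%, and the E-box CACGTG in 2 of the 9 (Tyms and Dtymk) against 7.15%. All letters were searched on both strands. No match in the 9 windows overlapped a match of another motif. These matches describe the letters of the windows only.

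Of the 9 genes, 5 rose at 48 hpi, 0 fell by limma, adjusted or not, and 4 did not pass the test. The 5 that rose were Tk1 (7.65-fold), Rrm2 (4.48-fold), Dck (2.71-fold), Rrm1 (2.47-fold) and Dut (2.14-fold). The test was limma with Benjamini-Hochberg adjustment over all 45037 probe sets, and a gene was called at an adjusted p under 0.05, with each gene read from its brightest probe set. Of all 18193 genes, 4.97% rose and 1.24% fell by the same rule. The median log2 fold change of the 9 genes was 1.09, and that of all genes was -0.01. All 3 injured samples lay above all 3 controls in 9 of the 9 genes, which holds for 17.2% of all genes. Since the genes were chosen with earlier results of these data known, these shares describe them and test nothing. Values are on the log2 scale of robust multi-array analysis (RMA), so a difference of 1 is a 2-fold change. In whole tissue, more cells that hold a transcript and more of the transcript per cell cannot be told apart.

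**Figure D1:**
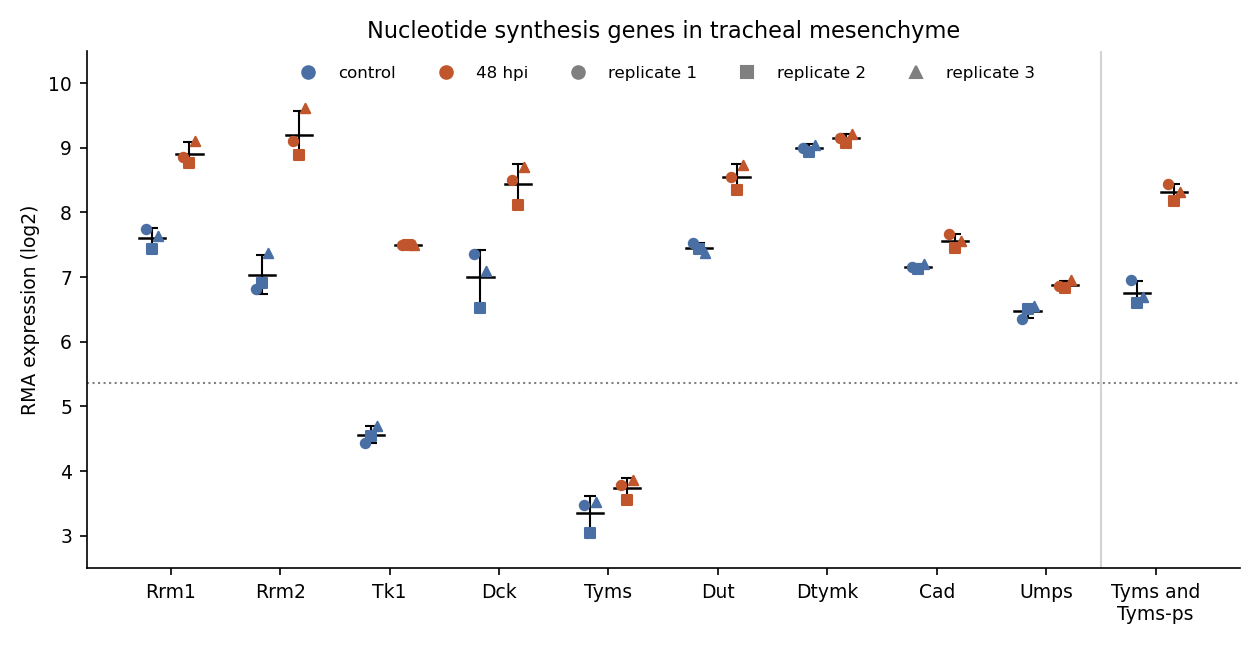
RMA expression (log2) of the 9 genes in each control sample (blue) and each 48 hpi sample (red), read from the brightest probe set of each gene, with replicate numbers as symbols, group means as bars and SDs as whiskers (n = 3 per group). The last column is the probe set annotated to both Tyms and Tyms-ps, and the dotted line is the median probe set level of 5.36. Every gene's 48 hpi values lie above its controls. Group means differ by 2.94 for Tk1 and by 0.15 for Dtymk. For Dtymk the lowest 48 hpi value is 9.08 and the highest control 9.05.

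The large subunit gene Rrm1 read 7.74, 7.44 and 7.63 in the controls and 8.85, 8.76 and 9.11 at 48 hpi. Its log2 fold change was 1.30 ± 0.13 (SE, n = 3 per group, 95% interval 1.01 to 1.60), with a limma adjusted p of 0.00272. The lowest injured sample stood above the highest control by more than the spread within either group. A further Rrm1 probe set gave 0.91 ± 0.20 with an adjusted p of 0.0536, and the dimmest, near the floor of the array in all samples, gave 0.08 ± 0.09.

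The small subunit gene Rrm2, whose product limits reductase activity outside S phase, rose more than any other member but Tk1. It read 6.82, 6.91 and 7.38 in the controls and 9.10, 8.89 and 9.61 at 48 hpi. The log2 fold change was 2.17 ± 0.22 (interval 1.66 to 2.67, adjusted p = 0.00317 by limma). Both groups had their highest value in replicate 3. The brightest Rrm2 probe set carries the suffix by which Affymetrix marks probes that can match other sequences. The next probe set, without that suffix, read 5.05, 4.76 and 4.49 in the controls and 6.81, 6.35 and 6.95 at 48 hpi, a change of 1.94 ± 0.20 (adjusted p = 0.00329). There replicate 3 was the lowest control, so the order of the controls differed between probe sets of Rrm2. The dimmest Rrm2 probe set gave 0.72 ± 0.13 (adjusted p = 0.0266).

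Tk1, the cytosolic thymidine kinase of the salvage route, had the largest change of the 9. It read 4.44, 4.55 and 4.70 in the controls and 7.49, 7.50 and 7.50 at 48 hpi. The log2 fold change was 2.94 ± 0.09 (interval 2.72 to 3.15), and the limma adjusted p was 8.58e-05. The control level lay below 5.36, the median level of all probe sets, where RMA compresses differences, and the injured level lay above it. Tk1 has 1 probe set under the rule, so no other reading of it was made.

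Dck, the kinase that salvages deoxycytidine and also phosphorylates deoxyadenosine and deoxyguanosine, read 7.36, 6.53 and 7.10 in the controls and 8.50, 8.11 and 8.71 at 48 hpi. Its log2 fold change was 1.44 ± 0.24 (interval 0.89 to 1.99, adjusted p = 0.0210 by limma). The controls were spread by more than in any other member, with replicate 2 the lowest sample in each group. The call depended on single samples: the limma adjusted p was 0.0699 without control replicate 3, 0.0639 without 48 hpi replicate 1 and 0.0939 without 48 hpi replicate 3. A dimmer Dck probe set read 4.08, 4.20 and 3.93 in the controls and 5.31, 5.02 and 5.53 at 48 hpi. It gave 1.21 ± 0.15 (adjusted p = 0.00669) and passed in all 6 fits that left out 1 sample. The dimmest Dck probe set gave 0.41 ± 0.11 (adjusted p = 0.0844).

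Dut encodes dUTPase, which breaks down dUTP so that uracil stays out of DNA and supplies dUMP, the substrate of thymidylate synthase. It read 7.53, 7.44 and 7.38 in the controls and 8.55, 8.34 and 8.74 at 48 hpi, with a log2 fold change of 1.09 ± 0.12 (interval 0.82 to 1.37, limma adjusted p = 0.00417). The controls differed among themselves by less than the injured samples did. Its dimmer probe set gave 0.19 ± 0.21 (adjusted p = 0.674), with groups that overlapped.

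Tyms encodes thymidylate synthase, which methylates dUMP to dTMP on the de novo route to thymidylate. All 4 probe sets annotated to Tyms alone lay far below the median level of the array, with means over the 6 samples of 3.14 to 3.54, and 0 of the 4 passed the test. The brightest of them read 3.48, 3.05 and 3.52 in the controls and 3.79, 3.55 and 3.86 at 48 hpi, a log2 fold change of 0.39 ± 0.15 (interval 0.03 to 0.74, limma adjusted p = 0.225). The other 3 gave changes between -0.06 and 0.27. A brighter probe set is annotated to Tyms and to its pseudogene Tyms-ps together and therefore fell outside the rule. That probe set read 6.96, 6.60 and 6.69 in the controls and 8.44, 8.18 and 8.31 at 48 hpi, with a log2 fold change of 1.56 ± 0.12 (limma adjusted p = 0.00118). Its value cannot be divided between the gene and the pseudogene.

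Dtymk encodes thymidylate kinase, the step at which dTMP from synthesis and from salvage meets on its way to dTTP. Its brightest probe set read 9.0, 8.94 and 9.05 in the controls and 9.15, 9.08 and 9.22 at 48 hpi. The log2 fold change was 0.15 ± 0.08 (interval -0.05 to 0.35), with a limma adjusted p of 0.384, the highest of the 9 genes. The 3 Dtymk probe sets, all above the median level, did not read the same change. The second, with 7.95, 8.31 and 7.92 in the controls and 8.81, 8.80 and 8.95 at 48 hpi, gave 0.79 ± 0.12 with an adjusted p of 0.0188, which passed in 1 of the 6 fits that left out a sample, and the third gave 0.27 ± 0.10 (adjusted p = 0.180). With the gene read as the mean over its probe sets, the change was 0.40 and the limma adjusted p was 0.0224. The same reading, which takes in dim probe sets, lowered the changes of 4 other members by over 1.5 times. Rrm1 was then at 0.76 (adjusted p = 0.00372), Dut at 0.64 (adjusted p = 0.0359), Cad at 0.24 (adjusted p = 0.148) and Tyms at 0.15 (adjusted p = 0.241).

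Cad and Umps encode the multifunctional enzymes that start and finish the synthesis of UMP from glutamine, bicarbonate and aspartate. Cad read 7.16, 7.12 and 7.21 in the controls and 7.66, 7.45 and 7.56 at 48 hpi, a log2 fold change of 0.40 ± 0.09 (interval 0.19 to 0.61, limma adjusted p = 0.0574). Umps read 6.36, 6.50 and 6.56 in the controls and 6.86, 6.83 and 6.95 at 48 hpi, a log2 fold change of 0.41 ± 0.09 (interval 0.20 to 0.62, limma adjusted p = 0.0551). In both genes the groups did not overlap, and neither passed the test. Read from the brightest probe sets, both intervals lie below those of the 5 genes that rose, whose lowest bound was 0.82 (Dut). Other probe sets did not keep this separation, and no test of the difference between genes was made. Another Umps probe set read 6.27, 6.03 and 6.13 in the controls and 6.77, 6.59 and 7.03 at 48 hpi. It gave 0.66 ± 0.13 (interval 0.35 to 0.96, limma adjusted p = 0.0394). Another Cad probe set gave 0.52 ± 0.15 (interval 0.16 to 0.87, limma adjusted p = 0.120). Both of these intervals reach past 0.82.

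Replicate numbers are shared by the groups, and samples with the same number deviated together, so a limma fit with the number as a block was made as well. With the block, 8 of the 9 genes rose, against 8.77% of all genes. The 3 genes that it added were Umps (adjusted p = 0.0310), Cad (adjusted p = 0.0350) and Tyms (adjusted p = 0.0389), and Dtymk did not pass (adjusted p = 0.293). The fits that left out 1 sample each called Tk1, Rrm2, Rrm1 and Dut in 6 of 6 cases.

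Of the 26 probe sets, 10 rose and 0 fell, against 3.49% of all probe sets that rose. With the replicate block 15 of the 26 rose, against 6.43% of all. By the mean over all 6 samples, 14 of them lay above the median level of 5.36 and 12 at or below it. Of the 14, 3 had control means below 5.36 and lay above it through the 48 hpi samples (Tk1, 1 of Rrm2 and 1 of Rrm1), so no share that rose is read from this split. In all, 23 of the 26 changes were above 0, and 7 of the 9 genes had at least 1 probe set that rose. The matching shares over all probe sets and genes were not computed, and most members have several probe sets. Neither count is therefore read as a result. The median change over the 26 probe sets was 0.41, and that over all probe sets was -0.04.

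**Figure D2:**
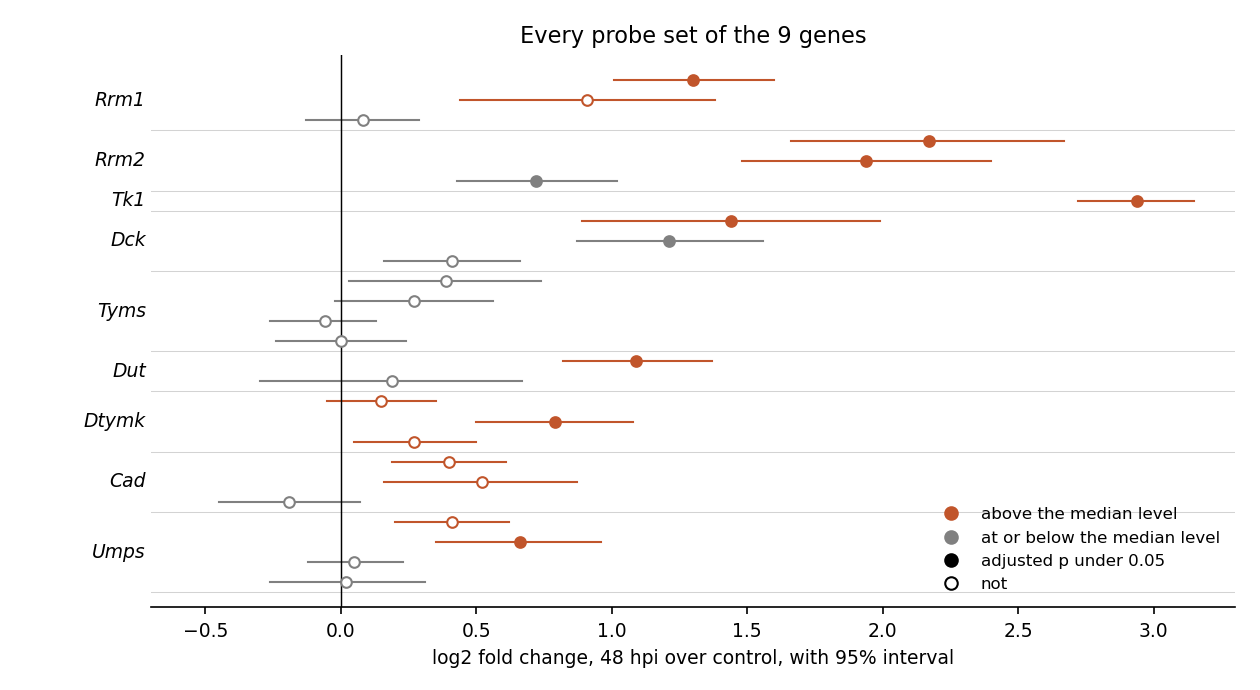
Log2 fold change (48 hpi over control) of every probe set of the 9 genes, with the 95% interval of the limma fit; filled points passed the adjusted p threshold and grey points lay at or below the median level of all probe sets. Probe sets of Rrm1 run from 0.08 to 1.30, of Rrm2 from 0.72 to 2.17, of Dck from 0.41 to 1.44 and of Dut from 0.19 to 1.09. Those of Tyms run from -0.06 to 0.39, of Cad from -0.19 to 0.52, of Umps from 0.02 to 0.66 and of Dtymk from 0.15 to 0.79. The 1 of Tk1 is at 2.94. The level is the mean of all 6 samples, 48 hpi included, so changes are not compared between grey and other points.

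The injured samples stood in much the same order across the members. In 7 of the 9 genes 48 hpi replicate 3 was the highest of the 6 samples. In 8 of the 9 genes 48 hpi replicate 2 was the lowest of the 3 injured samples. The share of all genes in either order was not computed. For Tk1 the injured values (7.49, 7.50 and 7.50) differ too little to be ranked. The mean level of the 9 genes was 6.65, 6.50 and 6.72 in the controls and 7.77, 7.61 and 7.92 at 48 hpi. Replicate 3 was also the highest and replicate 2 the lowest injured sample in the mean levels of the replication fork, regulator, other pyrimidine, folate, macrophage and neutrophil genes described below, while mitosis genes read 7.02, 7.23 and 7.49 and purine and breakdown genes were highest in replicate 1.

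Of the 9 genes, 3 have a counterpart that supplies deoxynucleotides outside S phase: Rrm2b, the p53-inducible small subunit of the reductase, and Tk2 and Dguok, the mitochondrial kinases of thymidine and of deoxyguanosine. None of the counterparts rose or fell: Rrm2b gave -0.35 ± 0.13 (adjusted p = 0.211), Tk2 -0.19 ± 0.15 (adjusted p = 0.558) and Dguok 0.01 ± 0.12 (adjusted p = 0.974), all by limma. Within each sample the log2 value of the counterpart was taken from that of the member. Since probe sets differ in brightness, only the change of this difference can be read, not its sign. For Rrm2 less Rrm2b the difference went from -0.69 ± 0.41 (SD, n = 3) in the controls to 1.82 ± 0.36 at 48 hpi, a change of 2.52, or 5.72-fold in the ratio. With genes read as means over their probe sets this change was 1.83. For Tk1 less Tk2 it went from -1.49 ± 0.05 to 1.63 ± 0.30, a change of 3.12, or 8.70-fold. For Dck less Dguok it went from -0.95 ± 0.56 to 0.48 ± 0.31, a change of 1.43, or 2.69-fold. The groups did not overlap in any of the 3 comparisons, so the injured sample was necessarily higher in all 3 same-numbered pairs of each. A two-sided exact permutation test gave p = 0.1 for each, also after Benjamini-Hochberg adjustment over the 3 comparisons, which is the smallest value that 3 samples against 3 allow.

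**Figure D3:**
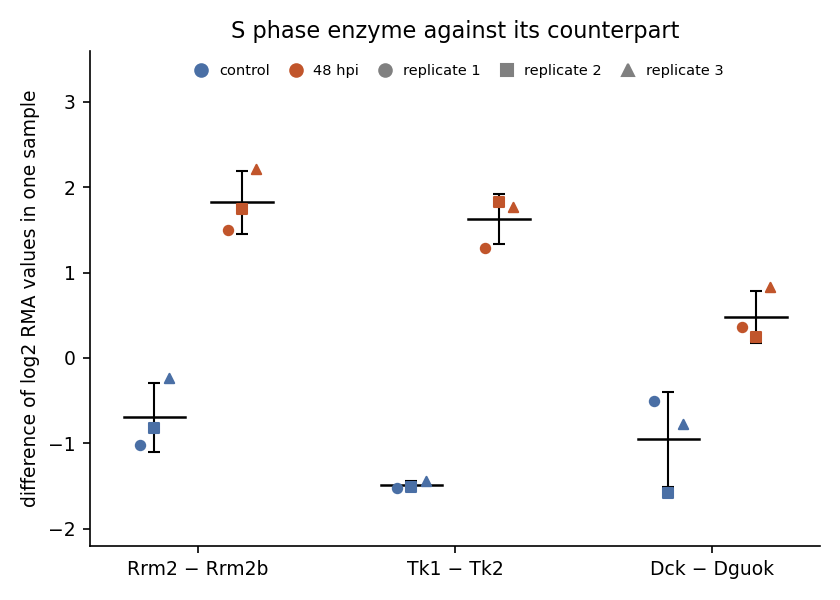
Difference of log2 RMA values within each sample between a member gene and its counterpart outside S phase. Controls are blue and 48 hpi is red, with group means and SDs (n = 3 per group). The differences are higher at 48 hpi by 2.52, 3.12 and 1.43, and the groups do not overlap; the level of a difference depends on the probes and is not read.

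Other genes of nucleotide metabolism were read from lists of synthesis, salvage, folate, breakdown and transport genes. Of 80 further genes listed, 70 were measured, and 13 of them rose (18.6%) and 0 fell, against 4.97% and 1.24% of all genes. Their median log2 fold change was 0.16, against 1.09 for the 9 members. At an unadjusted limma p under 0.05, 5 genes were lower. With the replicate block 22 rose and 4 fell, against 8.77% and 4.64% of all genes. Those that rose were 4 other pyrimidine, 3 purine synthesis, 3 purine salvage, 4 folate and 8 breakdown genes. No test was made of the difference between these lists and the 9 genes.

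Among 13 other pyrimidine genes 3 rose: Ctps, CTP synthase (log2 fold change 1.12 ± 0.18, limma adjusted p = 0.0217), Uck2, the uridine and cytidine kinase (0.86 ± 0.10, adjusted p = 0.00722), and Dctpp1, which hydrolyses dCTP (0.74 ± 0.11, adjusted p = 0.0143). Dhodh, which carries out the step between Cad and Umps in the mitochondrion, gave 0.04 ± 0.10 (adjusted p = 0.859). Among 12 genes of purine synthesis 2 rose. These were Adssl1, the muscle form of adenylosuccinate synthase (1.26 ± 0.17, adjusted p = 0.00972), and Gmps, which makes GMP (0.64 ± 0.10, adjusted p = 0.0210). Among 11 genes of purine salvage and kinases 2 rose, Aprt, which salvages adenine (0.71 ± 0.10, adjusted p = 0.0105), and Nme2, a nucleoside diphosphate kinase (0.40 ± 0.08, adjusted p = 0.0439). The folate cycle supplies the carbon that Tyms transfers, and 2 of its 12 genes rose. They were Aldh1l2 (0.91 ± 0.18, adjusted p = 0.0411) and Mthfd1l (0.88 ± 0.10, adjusted p = 0.00651), both mitochondrial enzymes. Several of these calls depended on single samples. In the 6 fits that left out 1 sample, Uck2, Adssl1, Aprt and Mthfd1l passed in 6. Gmps passed in 3, Ctps and Dctpp1 in 2, Aldh1l2 in 1 and Nme2 in 0.

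Of 18 genes that break nucleotides and nucleosides down, 4 rose. They were Ada, adenosine deaminase (2.18 ± 0.15, adjusted p = 0.000778), Upp1, uridine phosphorylase (1.60 ± 0.17, adjusted p = 0.00417), Gda, guanine deaminase (1.52 ± 0.15, adjusted p = 0.00272), and Nt5c, a cytosolic nucleotidase (limma log2 fold change 0.50 ± 0.10, adjusted p = 0.0381). Nt5c passed in 0 of the 6 fits that left out 1 sample, and Ada, Upp1 and Gda passed in 6. Of the 4 nucleoside transporters measured 0 passed limma (1 was lower at an unadjusted p under 0.05), and Slc29a1, the equilibrative transporter, gave -0.52 ± 0.13 (adjusted p = 0.0823, and 0.0348 with the replicate block).

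**Figure D4:**
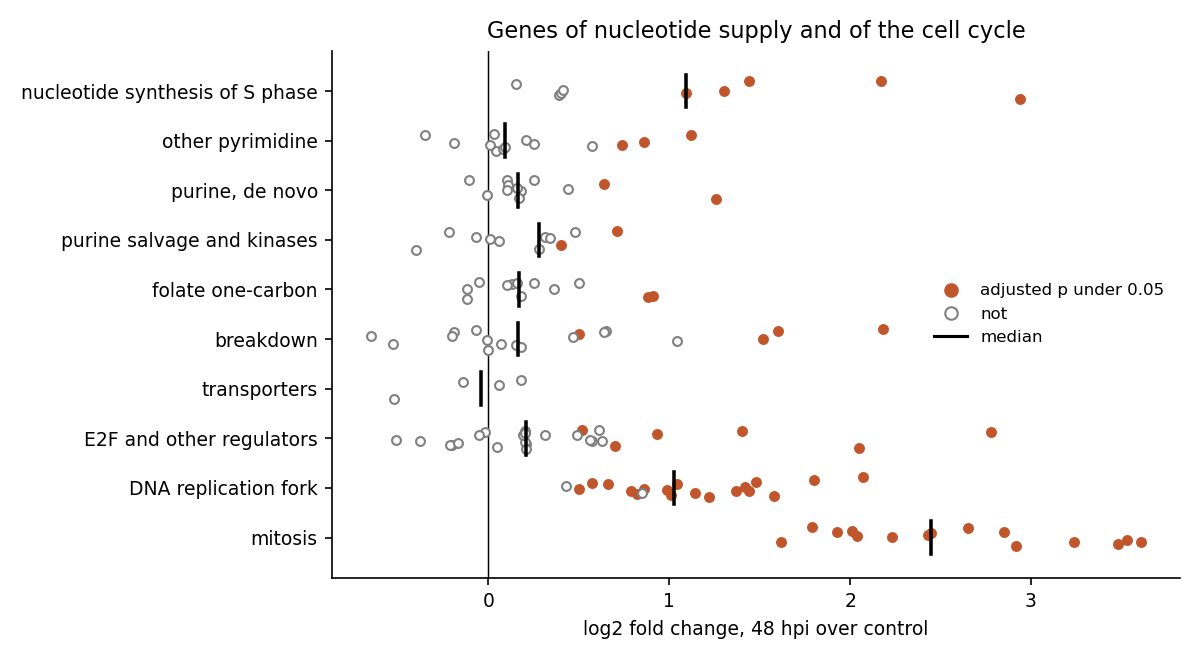
Log2 fold change (48 hpi over control) of each measured gene in the 9 members and in the listed groups of nucleotide and cell cycle genes, with filled points for genes past the adjusted p threshold and a bar at the median of each group. The members have a median of 1.09, the medians of the nucleotide groups lie between -0.04 and 0.28 with single genes up to 2.18 (Ada), DNA replication fork genes have a median of 1.03 and mitosis genes a median of 2.45.

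Genes that act with these enzymes in dividing cells were read in the same way. Of 20 genes of the DNA replication fork 18 rose and 0 fell, and the median log2 fold change was 1.03, beside 1.09 for the members. All 20 rose with the replicate block. The largest were Mcm5, of the replicative helicase (2.07 ± 0.23, adjusted p = 0.00470), Pole, of the leading strand polymerase (1.80 ± 0.24, adjusted p = 0.0103), and Gins1 (1.58 ± 0.14, adjusted p = 0.00167). Of 15 mitosis genes 15 rose, with a median of 2.45, led by Ccnb2 (3.61 ± 0.14), Mki67 (3.53 ± 0.34) and Cdk1 (3.48 ± 0.13). Among 26 E2F and other cell cycle regulators, 9 rose with the replicate block. By limma without it 6 rose and 0 fell (2 were lower at an unadjusted p under 0.05). The largest were Cdc20, an activator of the anaphase-promoting complex (2.78 ± 0.20, adjusted p = 0.000812), and the repressive E2F factors E2f7 (2.05 ± 0.21, adjusted p = 0.00351) and E2f8 (1.40 ± 0.23, adjusted p = 0.0215). E2f1 rose by 0.52 ± 0.08 on the log2 scale (limma adjusted p = 0.0189), and Tfdp1 and Rbl1 rose as well. In the 6 fits that left out 1 sample, Cdc20 and E2f7 passed in 6, Rbl1 in 5 and E2f8 in 2. E2f1 passed in 1 of these fits and Tfdp1 in 0. The probe sets read for Mcm5 and Cdc20 carry the same suffix as the brightest one of Rrm2. Each of these genes has 3 probe sets, and the others are not given here.

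The hybridization spike-ins added to each array had mean log2 levels of 10.57 to 10.99 in the control samples and 10.52 to 10.98 at 48 hpi, and 5 of the 9 genes rose also with this level as a covariate. The poly-A spike-ins read 6.07, 5.86 and 5.53 in the control samples and 5.76, 5.49 and 5.20 at 48 hpi, lower in each of the 3 same-numbered pairs. Their part in the results was not tested. Markers of the cell types that the tissue could hold were read beside these results. Shares over all genes were 4.97% that rose and 1.24% that fell by limma, or 8.77% and 4.64% with the replicate block. Fibroblast, chondrocyte and smooth muscle markers were bright in both groups, with mean levels between 10.43 and 12.25 in all samples. Among them 1 of 7 fibroblast markers fell (Dpt), and with the replicate block Col1a1 rose as well (adjusted p = 0.0221). Chondrocyte markers were lower at 48 hpi in 7 of 7 cases, and their median change was -0.60 on the log2 scale. By limma 1 fell (Hapln1), 5 were lower at an unadjusted limma p under 0.05, and 4 fell with the replicate block. Their mean level was 11.47 to 11.56 in the controls and 10.73 to 11.17 at 48 hpi. Of the smooth muscle markers 0 of 6 passed limma, adjusted or not. Airway epithelial markers were not absent, and 0 of 8 passed the limma test (1 was lower at an unadjusted p under 0.05). The secretory cell gene Scgb1a1 had control and 48 hpi means of 12.88 and 10.31 (adjusted p = 0.146, and 0.0146 with the replicate block). Epcam, Cdh1, Krt5, Krt14 and Krt8 had means between 6.93 and 9.04 in both groups, with Krt5, of basal cells, at 7.0 and 7.18, while Foxj1 and Trp63 lay below 5.36. Macrophage markers rose with the members in 7 of 7 cases, with mean levels of 6.97 to 7.30 in the controls and 8.70 to 9.12 at 48 hpi. Of 6 neutrophil markers 3 rose (S100a8, S100a9 and Csf3r), with mean levels of 4.34 to 5.39 and 6.20 to 6.84, while Cxcr2, Mpo and Elane lay below 5.36 in both groups. Of 6 endothelial markers 2 rose (Cdh5 and Tie1), or 3 with the replicate block, and 0 of 5 lymphocyte markers passed limma, adjusted or not. Several marker calls depended on single samples. In the 6 fits that left out 1 sample, Dpt passed in 0, Hapln1 and Cdh5 in 1 and Tie1 in 3. S100a8 passed in 2, S100a9 in 3 and Csf3r in 6. Among macrophage markers Cd14 passed in 1, Msr1 in 5 and the others in 6. The part of these cell types in the rise of the 9 genes was not tested.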

How the data were processed

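RNA of 3 control and 3 48 hpi samples of tracheal mesenchyme was hybridized by the authors to Affymetrix Mouse Genome arrays, 1 per sample. The table that the authors deposited holds log2 values from RMA, with 1 value per probe set and array. Tools in the submitters' processing notes are Affymetrix Expression Console 1.1, Partek 6.5 and RMA. RMA equalizes the distribution of values across arrays, which hides any shift common to most genes, and it compresses differences of dim probe sets. Depth does not apply to arrays, whose number limits the precision.

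Of 45101 probe sets, 64 controls were left out. The platform annotation gave 1 symbol to 34945 of the rest, several to 932 and none to 9160, and 34741 matched the RefSeq gene table of GRCm38.p6. A gene was read from its brightest probe set by the mean of the 6 samples, and 9010 of 18193 genes had more than 1. limma (3.58.1, in R 4.3.3; two-sided tests from lmFit and eBayes with a term for group, 4 residual degrees of freedom plus a prior of 3.21) was run on all 45037 probe sets, after being tested on simulated data. Errors of fold changes are SEs of the fit, and errors of means are SDs. The analysis of variance in the study's methods also held epithelial samples, which are not analysed here, so only group was fitted. Arrays of a group correlated at 0.987 to 0.994.

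Same-numbered samples of the groups deviated together, with correlations over probe sets of 0.62, 0.36 and 0.34 after removal of group means, and each sample correlated best with its own number. The numbers were therefore read as pairs, from the data and not from the labels. Control 2 with injured 3 and control 3 with injured 2 also correlated, at 0.11 and 0.18. With 3 samples a group few matchings exist, so the pairing is uncertain. A fit with the number as a block (2 residual degrees of freedom) is given beside member genes and list counts whose calls it changed.

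The members and gene lists were chosen with earlier results of these data known. Named genes were all members, and from each list the 3 largest changes in each direction among genes that passed, or the 2 brightest genes where none did. Further genes named with their values known were Nt5c, Dhodh, E2f1, Tfdp1 and Rbl1. Of 80 further nucleotide genes listed, 10 are not analysed here. Alternatives were the block, an intensity trend in eBayes, median centring, a second quantile normalization, omission of dim probe sets, the mean over probe sets, omission of each sample or of both samples numbered 1, and an equal-variance test. A covariate from hybridization controls and the Tyms probe set shared with Tyms-ps were added after seeing the data. Motif letters were searched in RefSeq promoter windows by exact match.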

Additional observations from a re-analysis of the deposited data

Results flagged for a closer look

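A probe set outside the rule carried a clear difference. It is annotated to both Tyms and its pseudogene Tyms-ps, so no comparison of the 9 genes used it. Its mean was 6.75 ± 0.19 (SD, n = 3) in the controls and 8.31 ± 0.13 in the injured samples. The difference was 1.56 ± 0.12 on the log2 scale (SE, 95% interval 1.27 to 1.85), or 2.95-fold. The limma adjusted p was 0.00118, and it was at most 0.0102 in the 6 fits that left out 1 sample. The 4 probe sets of Tyms alone lay below the median level of the array and gave changes between -0.06 and 0.39. Counting this probe set for Tyms would bring the members that rose to 6 of 9. Which of the transcripts it read was not tested.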

How the results depend on the processing

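The log2 fold changes of the 9 genes were recomputed under 143 alternative values, of which 0 reversed, 125 kept their side of the threshold, 8 no longer passed and 10 newly passed. The 3 changes against counterparts kept their direction under all alternatives run. With means over probe sets they were 1.83, 3.12 and 1.01 in place of 2.52, 3.12 and 1.43. The count of members that rose was 5, and it was 8 with the replicate block, 8 by an equal-variance test at an unadjusted p and 1 (Tk1) by that test after Benjamini-Hochberg adjustment. It was between 4 and 7 otherwise, with 4 to 5 when 1 sample was left out. The 7 came from omission of dim probe sets, which left 8 genes, without Tyms. That omission went by the mean of all samples, which kept Tk1 through its 48 hpi values. Dck had an adjusted p of 0.0507 with both samples numbered 1 left out.

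With the replicate block, the pairing of same-numbered samples, 2896 of all probe sets rose and 2032 fell, in place of 1572 and 381. Leaving out 1 sample gave 548 to 1086 that rose and 34 to 176 that fell, with the lowest counts without 48 hpi replicate 3. Counts that rose moved by over 1.5 times without each sample but 48 hpi replicate 2, and counts that fell without every one of the 6. With both samples numbered 1 left out the counts were 683 and 144. The equal-variance test gave 4353 and 3125 unadjusted, and 70 and 8 adjusted. The covariate from hybridization controls gave 198 that fell.

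Of the other nucleotide genes, 13 rose and 0 fell by limma. The block gave 22 and 4, leaving out 1 sample gave 7 to 11 and 0 to 1, and leaving out both samples numbered 1 gave 6 that rose. The equal-variance test gave 25 and 3 unadjusted, with 0 that rose when adjusted, and the mean over probe sets gave 2 that fell. Causes were not tested, beyond the fewer samples of some fits. With 3 pools a group, and Tk1 controls and all Tyms probe sets below the median level, small or dim changes are poorly resolved.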
